A study of Mus musculus with 6 samples.

Results

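The E2F and DP transcription factors were examined in megakaryocyte progenitors of mice with the GATA1s genotype. The set holds 10 genes, E2f1 to E2f8, Tfdp1 and Tfdp2, taken by symbol from the 18193 genes that the platform annotation names singly. Together they had 21 probe sets, and all of those were used. Every one of the 10 genes had at least 1 probe set above the filter on low signal, and 1 of the 21 probe sets, for E2f5, was below it.

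The cells were C57BL/6 progenitors sorted by flow cytometry for c-kit, CD150 and CD41 after exclusion of lineage-positive and Sca-1-positive cells. One group holds 3 samples from the bone marrow of adults, 12 to 18 weeks old, and the other 3 samples from fetal liver at E13.5. Both groups carry GATA1s, a form of the hematopoietic factor GATA1 that lacks its amino terminus, and no difference between them can be assigned to it. Gata1 had a log2 signal 0.49 higher in fetal liver than in bone marrow (limma adjusted p = 0.0138), and whether its probe set lies in the altered part was not analysed here, so this does not check the genotype. The labels call the samples biological replicates without saying how the GATA1s allele was made or how many animals each sample came from, so the p-values cover only the spread from one sample to another. The values are MAS5 signals on a linear scale, 1 per probe set and array. A pair of arrays stood apart from their groups on lineage markers, by the median deviation from the mean of the other arrays of the tissue. On the log2 scale it was -1.27 for erythroid markers on bone marrow replicate 1, and -1.14 for megakaryocyte markers on fetal liver replicate 1. Results that lose their call without either array are named as such beside the result.

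E2F proteins bind DNA at genes needed for S phase and mitosis, most of them as a dimer with a DP partner. E2F1, E2F2 and E2F3 mainly activate transcription, E2F4 and E2F5 mainly repress it together with the pocket proteins p107 and p130, E2F6 represses without pocket proteins as part of a polycomb complex, and E2F7 and E2F8 are atypical repressors that need no DP partner. Cyclin-dependent kinases release E2F from the pocket proteins by phosphorylating them. In megakaryocytes this circuit matters because the cells first divide and then replicate their DNA without dividing, and the amino terminus that GATA1s lacks has been linked to restraint of E2F-driven proliferation.

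Differences between the tissues were small in this family and ran in both directions. Of the 10 genes tested with limma, 2 were higher in fetal liver (E2f6 and E2f7), 3 were lower (E2f2, E2f8 and Tfdp2) and 5 did not pass at an adjusted p of 0.05. Across all 11645 genes tested, 36.1% passed, 17.8% higher and 18.3% lower. No member changed 2-fold, whereas 14.6% of all genes passed with at least that change. The largest difference was 1.68-fold, for E2f2. The median absolute log2 fold change was 0.315 in the family and 0.295 over all genes, so the size of the differences was close to that of the array as a whole. Arrays of the tissues did not overlap for 7 of the 10 genes, against 50.5% of all genes. Throughout, a log2 fold change is that of fetal liver relative to bone marrow, given ± SE, and a gene is represented by its probe set of highest mean signal unless another is named.

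**Figure D1:**
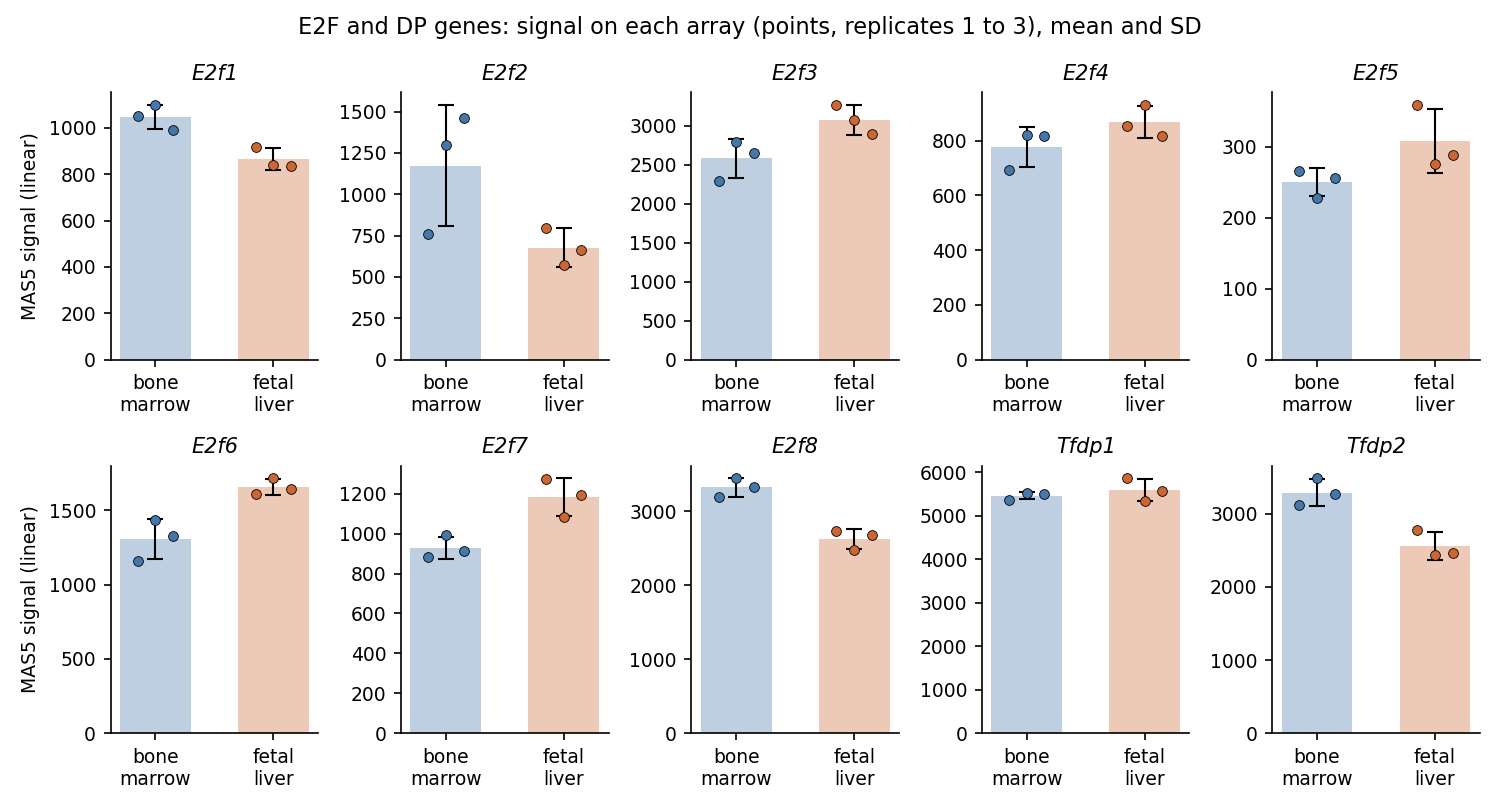
MAS5 signal (linear scale, from 0) of the highest probe set of each of the 10 genes, by tissue; points are the 3 arrays of a tissue in replicate order from left to right, bars the mean and whiskers the SD. Fetal liver arrays all lie below bone marrow arrays for E2f1, E2f8 and Tfdp2 and all above them for E2f3, E2f5, E2f6 and E2f7, while E2f2, E2f4 and Tfdp1 overlap.

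Among the activators, E2f2 was lower in fetal liver, and neither E2f1 nor E2f3 passed the test. E2f1, the prototype activator of S-phase genes, had signals of 1049, 1098 and 992 on the bone marrow arrays and 919, 841 and 836 on the fetal liver arrays. All fetal liver values lay below all bone marrow values, but the difference did not pass (log2 fold change -0.27 ± 0.10, limma adjusted p = 0.0674, 95% interval -0.51 to -0.04). The other E2f1 probe sets had log2 fold changes of -0.07 and -0.47 with overlapping arrays. With array weights in the fit the probe set of highest signal passed (adjusted p = 0.0247).

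E2f2, an activator prominent in late erythroid differentiation, had signals of 760, 1301 and 1462 in bone marrow and 799, 570 and 665 in fetal liver. Bone marrow replicate 1 was the low array of its group and lay within the fetal liver range. The log2 fold change was -0.75 ± 0.23 (adjusted p = 0.0334). A second E2f2 probe set repeated the order of the bone marrow arrays, at 704, 1057 and 1241, and had fetal liver signals of 662, 683 and 636; its log2 fold change of -0.56 did not pass among all probe sets (adjusted p = 0.0550). The E2f2 call was also lost without bone marrow replicate 2 (0.110) or 3 (0.121) and without fetal liver replicate 2 (0.110) or 3 (0.0813). Bone marrow replicate 1 was also low for several marker lists, by the median deviation from the other bone marrow arrays. It was -1.27 for erythroid, -0.86 for lymphoid and -0.56 for mast cell and basophil markers. Among erythroid genes Slc4a1, the red cell anion exchanger, read 2225 there against 5120 and 5342 on the other bone marrow arrays. Alas2, the erythroid heme synthesis enzyme, read 712 against 1950 and 2423. Both were called lower in fetal liver (log2 fold change -3.56 for Slc4a1 and -4.11 for Alas2). Of all 8 tested erythroid markers, however, 3 were called higher (Hbb-y, Hba-x and Epor) and 3 lower. The part of any of these cell types in the E2f2 difference was not tested. Without bone marrow replicate 1 the E2f2 log2 fold change was -1.04 (adjusted p = 0.00176).

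E2f3, the third activator, gave signals of 2298, 2792 and 2659 in bone marrow and 3272, 3071 and 2893 in fetal liver. The arrays did not overlap, with a log2 fold change of 0.26 ± 0.10 (adjusted p = 0.0680, 95% interval 0.04 to 0.48). Its second probe set pointed the same way, at 0.51 (adjusted p = 0.0682 among all probe sets), and the mean of both passed (0.38, adjusted p = 0.0185). The activators therefore differed in sign, with E2f1 and E2f2 below 0 and E2f3 above it.

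Neither repressor that works with pocket proteins passed the test. E2f4, the most general of these repressors in quiescent and differentiating cells, read 692, 822 and 817 in bone marrow and 854, 931 and 816 in fetal liver. The groups overlapped, and the log2 fold change of 0.16 ± 0.12 had a 95% interval of -0.11 to 0.43 (adjusted p = 0.326). E2f5 read 266, 228 and 256 in bone marrow and 359, 275 and 288 in fetal liver. Its arrays separated narrowly, at 0.29 ± 0.17 (adjusted p = 0.201, interval -0.08 to 0.67). A second E2f5 probe set overlapped between tissues, and the third lay below 1 unit of signal on all 6 arrays and was not tested.

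E2f6, the polycomb-linked repressor, rose from 1162, 1435 and 1326 in bone marrow to 1611, 1717 and 1645 in fetal liver. Every fetal liver array was above every bone marrow array, and the log2 fold change was 0.35 ± 0.11 (adjusted p = 0.0298). Its other probe set showed no such difference, with 373, 282 and 319 against 343, 293 and 359 (log2 fold change 0.03, interval -0.34 to 0.41), and the mean of both lost the call (0.19, adjusted p = 0.146). The call was also lost without bone marrow replicate 1 (0.0956) or 3 (0.0823) and without fetal liver replicate 2 (0.0712) or 3 (0.0778).

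The atypical repressors moved in opposite directions. E2f7 rose from 883, 992 and 911 to 1272, 1084 and 1194, a log2 fold change of 0.35 ± 0.11 (adjusted p = 0.0334). E2f8 fell from 3195, 3446 and 3323 to 2736, 2476 and 2678, a log2 fold change of -0.34 ± 0.08 (adjusted p = 0.0103). Neither gene's arrays overlapped between the tissues. A second E2f8 probe set fell further, from 365, 342 and 347 to 209, 240 and 211 (log2 fold change -0.68 ± 0.15, adjusted p = 0.00931 among all probe sets). E2f7 has a single probe set here, and its call was lost without bone marrow replicate 1 (0.0908) or 3 (0.113) and without fetal liver replicate 1 (0.0761) or 3 (0.0961). The E2f8 call was kept without any 1 of the 6 arrays.

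Of the dimer partners, Tfdp2 was lower and Tfdp1 was not called. Tfdp1, which encodes DP1, the main partner, read 5364, 5521 and 5491 in bone marrow and 5857, 5342 and 5562 in fetal liver. The tissues overlapped, with a log2 fold change of 0.03 ± 0.07 and a 95% interval of -0.12 to 0.18, the narrowest in the family. Tfdp2, the second DP gene, fell from 3117, 3486 and 3269 to 2785, 2433 and 2458 (log2 fold change -0.36 ± 0.09, adjusted p = 0.0116), with no overlap. Its other probe sets had log2 fold changes of -0.45 (adjusted p = 0.0162 among all probe sets), -0.30 (0.0931) and -0.19 (0.638), all of the same sign. Without bone marrow replicate 2 the Tfdp2 call was narrowly lost (adjusted p = 0.0504).

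Over the 20 tested probe sets of the family, 2 were called higher and 5 lower when each was tested on its own, against 26.8% called among 27022 probe sets. The called ones were 1 each for E2f6, E2f7 and E2f2 and 2 each for E2f8 and Tfdp2. No gene had probe sets called in both directions.

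**Figure D2:**
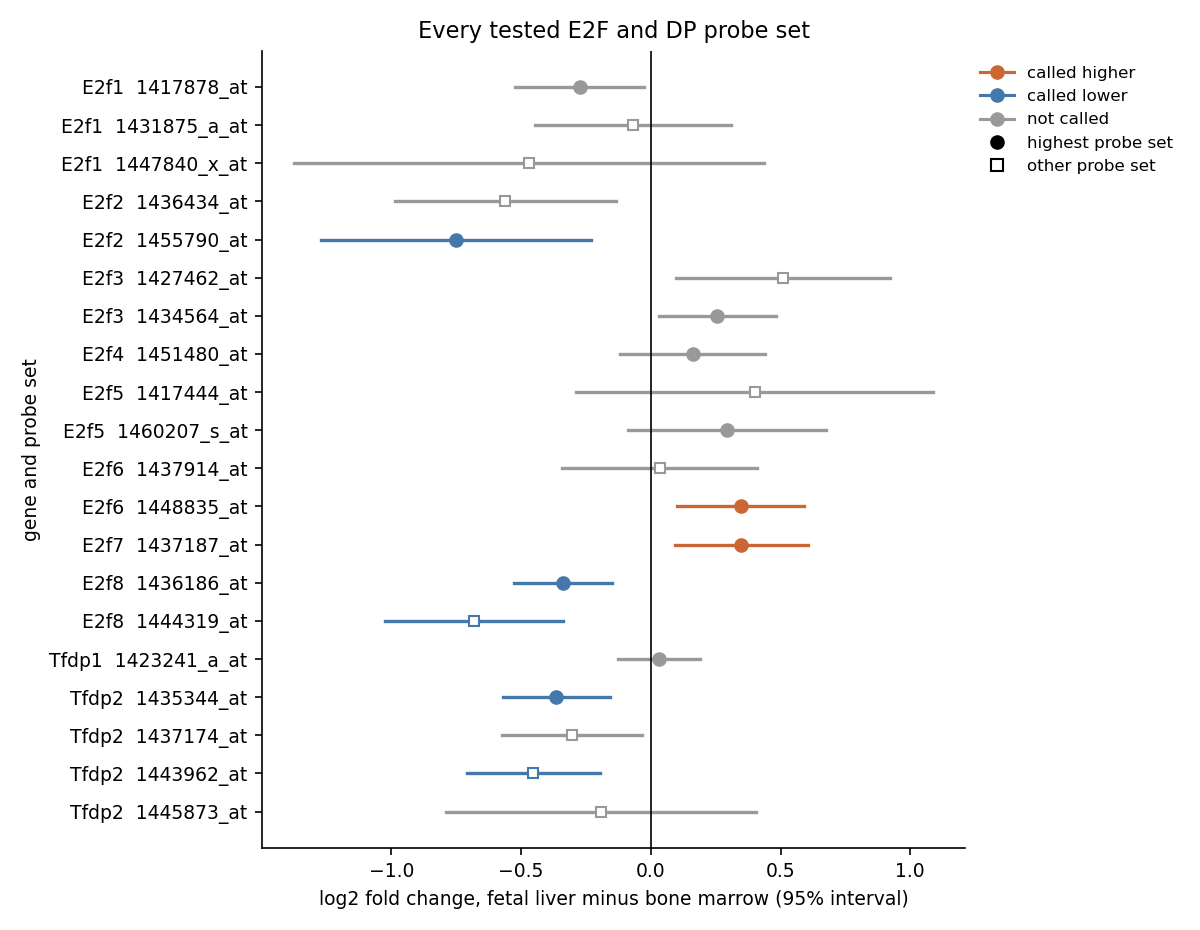
Log2 fold change of fetal liver relative to bone marrow (x axis) of each of the 20 tested E2F and DP probe sets, with the 95% interval of the limma fit over all probe sets; circles mark the highest probe set of a gene and squares the others. Both E2f8 probe sets and all 4 Tfdp2 probe sets lie below 0, and the intervals of Tfdp1, E2f4 and E2f5 cross 0.

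These differences are of the same size as the uncertainty in scaling between the arrays. The deposited signals have equal trimmed means, but the median signal was 65.9 to 74.6 in bone marrow and 52.0 to 59.1 in fetal liver. Centring each array on the median of its filtered probe sets moved the all-gene median log2 fold change from 0.04 to 0.20, and centring on all probe sets, an alternative chosen after seeing the data, moved it to 0.38. Under the first centring no member was lower: E2f8 was at -0.18 (adjusted p = 0.110), Tfdp2 at -0.20 (0.0996) and E2f2 at -0.59 (0.0585), while E2f3, E2f5, E2f6 and E2f7 were higher. Under the second, 6 members were higher, none lower, and E2f8 was at 0 and E2f1 at 0.06. Quantile normalization kept all 5 calls and added E2f5. Relative to the median of all genes E2f2 lay at -0.79, Tfdp2 at -0.405, E2f8 at -0.38, E2f1 at -0.32, E2f7 at 0.31 and E2f6 at 0.31.

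**Figure D3:**
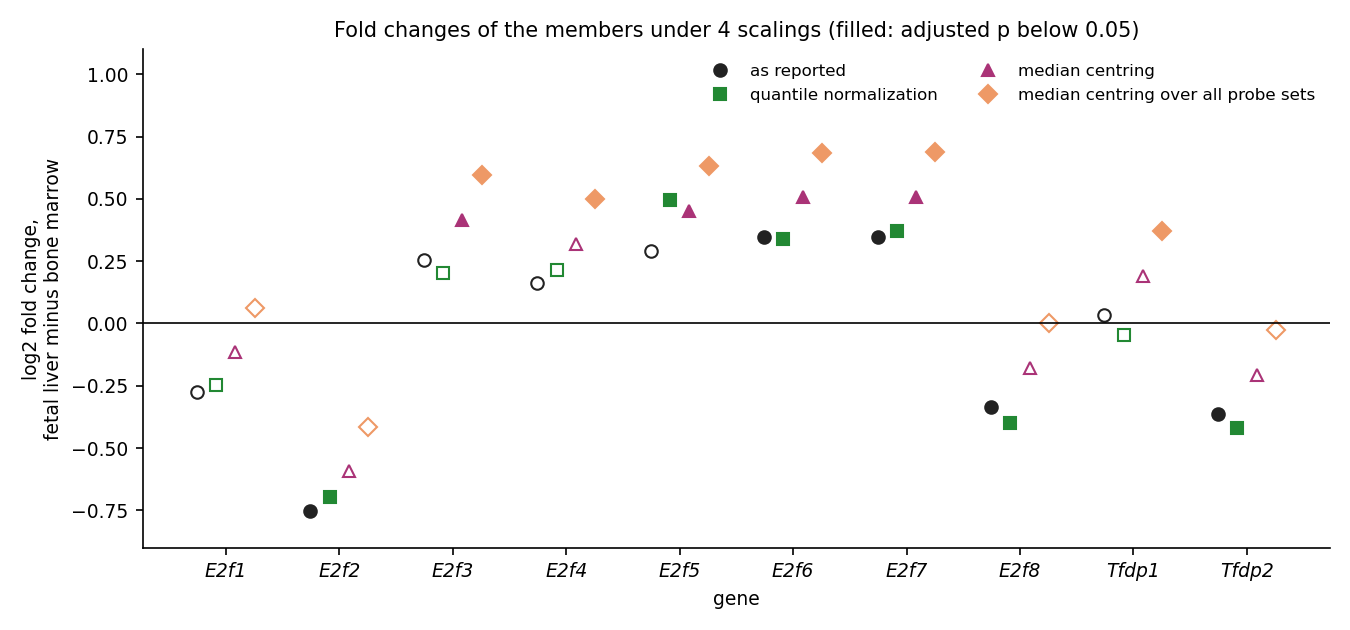
Log2 fold change (y axis) of each gene's highest probe set as reported and under 3 other scalings; filled symbols have an adjusted p below 0.05. E2f6 and E2f7 stay above 0 and called in all 4, whereas E2f8 and Tfdp2 are called lower as reported and under quantile normalization but not under either median centring.

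The difference of log2 signals between genes on the same array does not depend on a factor that scales the whole array, so it was used to compare members that share a role. The 4 pairs were chosen with the values above known. E2f7 minus E2f8, set to a mean of 0 in bone marrow, was -0.02, 0.04 and -0.03 on those arrays and 0.74, 0.65 and 0.68 on the fetal liver arrays, so the fold changes of these genes differed by 0.69. Tfdp1 minus Tfdp2 was 0.05, -0.07 and 0.02 in bone marrow and 0.34, 0.40 and 0.45 in fetal liver, a difference of 0.40. E2f3 minus E2f1 differed by 0.53 between the tissues. E2f3 minus E2f2 differed by 1.01, with a bone marrow spread of 0.37 (SD, n = 3), replicate 1 standing at 0.41. The arrays of the tissues separated in every pair. Each pair sets a gene with a higher fold change against one with a lower, so the direction follows from the choice and no test is given.

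**Figure D4:**
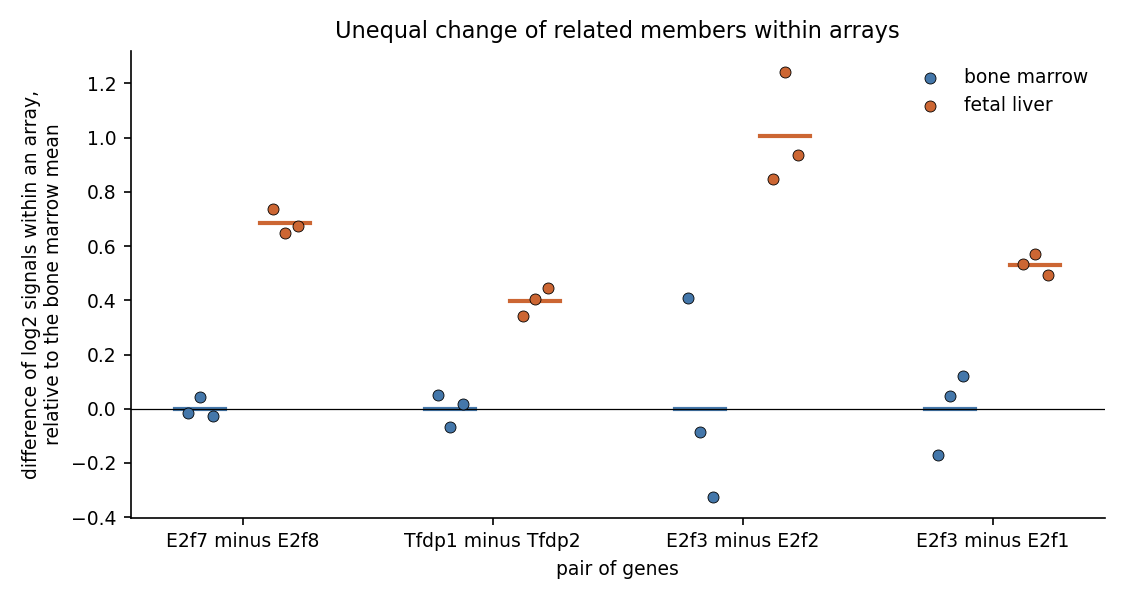
Difference of log2 signals between 2 genes on the same array (y axis), relative to its bone marrow mean, for 4 pairs of related genes; points are arrays and lines the tissue means. The fetal liver arrays lie above the bone marrow arrays in every pair, by 0.40 for Tfdp1 minus Tfdp2 and 0.69 for E2f7 minus E2f8.

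Several E2F genes are themselves E2F targets, so the promoter windows of the members were searched for the E2F consensus in the letters TTTCCCGC, TTTCGCGC, TTTGCCGC and TTTGGCGC on both strands. The windows were the bases before each RefSeq transcript start (250 on the plus strand and 249 on the minus strand, GRCm38.p6), given for 8 of the 10 genes, all but E2f4 and E2f5. E2f3, E2f7 and Tfdp1 held a match, 3 of 8 genes, against 1.85% of 32851 windows and 2.14% of the genes with a window. The 7-letter core without the first T was also in E2f8, and in 8.99% of all genes. The windows of E2f1, E2f2, E2f6 and Tfdp2 held neither; that of E2f1 belongs to a start 465 bases inside the gene, and those of Tfdp2 to starts 62459 and 63002 bases inside it. Sequences with a match follow, 5′ to 3′ on the gene's strand, because they belong to members set against each other above. Those of E2f3, E2f7 and Tfdp1 run up to the outermost start of the gene; that of E2f8 holds the core with 11 bases on each side and lies inside the gene, downstream of its outermost start. Capitals mark the match, which reads as the reverse complement in E2f3, E2f7 and Tfdp1. A match is a description of the letters and not evidence of binding.
E2f3 (chr13:29986065-29986313, minus strand), match beginning 10 bases before the start: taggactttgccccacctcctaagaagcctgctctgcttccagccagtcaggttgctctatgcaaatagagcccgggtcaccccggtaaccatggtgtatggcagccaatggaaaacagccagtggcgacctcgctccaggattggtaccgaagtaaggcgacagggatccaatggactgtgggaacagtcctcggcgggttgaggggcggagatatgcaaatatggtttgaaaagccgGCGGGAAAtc
E2f7 (chr10:110745189-110745438, plus strand), match beginning 198 bases before the start: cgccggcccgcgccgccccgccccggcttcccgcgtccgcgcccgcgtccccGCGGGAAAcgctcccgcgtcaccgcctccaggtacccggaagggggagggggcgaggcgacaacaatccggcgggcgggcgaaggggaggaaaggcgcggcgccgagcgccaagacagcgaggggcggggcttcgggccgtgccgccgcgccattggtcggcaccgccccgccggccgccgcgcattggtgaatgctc
Tfdp1 (chr8:13338501-13338724, plus strand), match beginning 43 bases before a start that lies 26 bases inside the gene: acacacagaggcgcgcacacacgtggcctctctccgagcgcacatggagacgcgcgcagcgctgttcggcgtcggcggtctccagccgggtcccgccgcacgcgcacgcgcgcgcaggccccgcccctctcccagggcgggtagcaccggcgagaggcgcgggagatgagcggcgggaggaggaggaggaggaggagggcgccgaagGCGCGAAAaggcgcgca
E2f8 (chr7:48881690-48881718, minus strand), core only, 110 bases before a start that lies 476 bases inside the gene: agaggcgcggaTTGGCGCgcggggccccg

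Of the genes with the consensus, E2f7 was higher (log2 fold change 0.35), and E2f3 (0.26) and Tfdp1 (0.03) were above 0 but not called. E2f8, with the core alone, was lower (-0.34). Of the genes with neither in the windows searched, E2f6 was higher (0.35), E2f2 (-0.75) and Tfdp2 (-0.36) were lower, and E2f1 (-0.27) was not called. The windows of E2f1, E2f8 and Tfdp2 lay wholly inside the gene. The bases before the outermost start of these genes were not searched, so no absence of the motif there can be stated. Whether the match goes with the direction was not tested.

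Upstream of E2F, the pocket proteins differed little. Rb1 and Rbl1, which encode RB and p107, had log2 fold changes of -0.06 and 0.05 (adjusted p = 0.703 and 0.653). Rbl2, which encodes p130, was lower at -0.35 (adjusted p = 0.0465), a call lost without any 1 of the 6 arrays (0.0685 to 0.176) and under median centring (0.214). It was also lost under quantile normalization (0.157), with no filter (0.0586) or a stricter one (0.0520), and with the replicate block (0.0749). Of 9 G1 cyclins and kinases that act on pocket proteins, 3 were higher and 3 lower, beside 17.8% and 18.3% of all genes. Ccnd1 fell from 1069 ± 166 to 417 ± 171 (SD, n = 3 each; log2 fold change -1.42 ± 0.25), Ccnd2 had -0.98 ± 0.15 and the kinase gene Cdk6 -0.54 ± 0.08, while Cdk4 (0.29 ± 0.08), Ccne1 (0.41 ± 0.12) and Ccna2 (0.33 ± 0.07) rose. The third D cyclin gene, Ccnd3 (0.14), was not called. Ccne1 lost its call when any array other than fetal liver replicate 2 was left out (0.0567 to 0.116), and Cdk4 without bone marrow replicate 2 or 3 (0.0601 each). Ccne1 was also lost with the replicate block (0.0563) and Cdk4 with no intensity trend (0.0547). Cdk6 was lost under centring over all probe sets (log2 fold change -0.20, adjusted p = 0.168).

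CDK inhibitors were lower in 3 of 5 tested cases and higher in 1, beside 18.3% and 17.8% of all genes. Cdkn2c, an inhibitor of CDK4 and CDK6, fell from 1330, 1310 and 945 to 96.4, 66.9 and 133 (log2 fold change -3.64 ± 0.25, adjusted p = 1.03e-05), the largest difference among the tested genes of the 10 lists described here. Cdkn1b, which encodes p27, and Cdkn1a, which encodes p21, fell with log2 fold changes of -0.49 ± 0.11 and -1.63 ± 0.46. The Cdkn1a call was lost without bone marrow replicate 1 (adjusted p = 0.0674) or 3 (0.0524) or fetal liver replicate 2 (0.0598). It was also lost with no intensity trend (0.0673) or a robust form of the prior (0.0669). The Cdkn1b call was lost under centring over all probe sets (log2 fold change -0.15, adjusted p = 0.315). Cdkn1c, which encodes p57, rose at low signal, from 22.7 ± 3.87 to 56.1 ± 20.5, with its bone marrow mean just below the filter signal of 22.9. It lost its call with no filter (0.0523) and without bone marrow replicate 2 (0.0766) or 3 (0.0649) or fetal liver replicate 2 (0.0856). Cdkn2a and Cdkn2b were below the filter in both tissues.

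Genes that control the stability of E2F proteins and of their regulators were higher in 5 of 7 cases and lower in none, beside 17.8% and 18.3% of all genes, with a list median of 0.35 and an all-gene median of 0.04. Skp2, a ubiquitin ligase subunit that removes p27, rose from 555, 838 and 871 to 1862, 1577 and 1720 (log2 fold change 1.21 ± 0.17, adjusted p = 6.35e-04). Ccnf, which encodes cyclin F, a ligase subunit that targets E2F proteins, rose from 423, 758 and 621 to 1261, 1643 and 1270 (1.24 ± 0.21, adjusted p = 0.00165). Every fetal liver array exceeded every bone marrow array for both, and both stayed called without any 1 array and under each scaling. Btrc rose by 0.56, Fzr1, the anaphase-promoting complex activator that targets E2F7 and E2F8, by 0.35 and Cul1 by 0.23. Fzr1 lost its call without any 1 of the arrays (0.0625 to 0.115), and Cul1 without any but fetal liver replicate 1 (0.0746 to 0.128). Btrc lost it without bone marrow replicate 2 (0.0517) or with the mean of its probe sets (0.0676). With the replicate block Fzr1 (0.0713) and Cul1 (0.0591) were lost. Cul1 was also lost with no filter (0.0654), no intensity trend (0.0989) or quantile normalization (0.0919).

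Partners of the repressor E2Fs were read against the 17.8% of all genes called higher and 18.3% called lower. In the MuvB core and its activators 2 of 7 rose and none fell, Mybl2 (0.58 ± 0.13) and Foxm1 (0.50 ± 0.15), which drive late cell cycle genes; the core subunits Lin9, Lin37, Lin52, Lin54 and Rbbp4 were not called. Foxm1 lost its call without bone marrow replicate 2 (0.0913) or 3 (0.0690) or fetal liver replicate 2 (0.0825), and with the replicate block (0.0525). Among 9 partners of E2F6 in its polycomb complex, L3mbtl2 rose (0.29 ± 0.08) and Ring1 fell (-0.46 ± 0.13), and the list median was 0.03. L3mbtl2 was lost without bone marrow replicate 1 (0.0699) or 3 (0.0883). Ring1 was lost under median centring (0.103) or quantile normalization (0.127) and with the replicate block (0.0525). It was also lost without bone marrow replicate 2 (0.0686) or 3 (0.101) or fetal liver replicate 3 (0.0746). Of the germline genes that E2F6 silences, Stag3, a meiotic cohesin subunit, was higher in fetal liver together with E2f6, at 341, 319 and 336 against 164, 155 and 156 (log2 fold change 1.07 ± 0.15, adjusted p = 6.31e-04). Smc1b, Slc25a31 and Tuba3b were below the filter, at signals up to 29.1. The promoter windows of all 5 genes of this list held the 7-letter core, and none held the full consensus.

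Of 36 tested G1/S target genes 11 were higher and none lower in fetal liver, beside 17.8% and 18.3% of all genes, with a list median of 0.18 against 0.04 over all genes. Whether called or not, 32 of the 36 log2 fold changes were above 0. Tyms, thymidylate synthase, rose from 206 ± 22.2 to 398 ± 24.7 (0.95 ± 0.15), Cdc45, a helicase subunit, from 820 ± 113 to 1398 ± 103 (0.78 ± 0.13) and Tk1, thymidine kinase, from 2518 ± 164 to 3637 ± 87.7 (0.53 ± 0.08), each with SD over n = 3. The mean of its probe sets lost the Cdc45 call (adjusted p = 0.0568). The brightest members, Pcna (0.14), Uhrf1 (0.12) and Dnmt1 (0.24), were not called. With the mean of its probe sets Uhrf1 passed (0.37, adjusted p = 0.00791), and Dnmt1 passed with the replicate block (0.0468). Without bone marrow replicate 3 the count was 7, and median centring raised it to 23. The full E2F consensus was in the windows of 10 of 32 G1/S targets. All 10 were tested and had a median log2 fold change of 0.14, and the 21 tested targets whose windows lacked it had 0.22; this difference was not tested. As reported none of the 10 and 9 of the 21 were called higher, but under median centring Uhrf1 (adjusted p = 0.0292) and Dnmt1 (0.0468), both with the consensus, were called too. The other targets with the consensus were not among the genes followed one by one under median centring, so this is not a full count.

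G2/M genes controlled by MuvB and FOXM1 were higher in 16 of 19 cases and lower in none, with a median of 0.62, beside 17.8% of all genes called higher and 18.3% lower. Plk1 and Aurka, kinases of mitotic entry and spindle assembly, had log2 fold changes of 1.09 ± 0.12 and 1.06 ± 0.11, Cdk1 0.66 ± 0.07, Ube2c 0.50 ± 0.07 and Top2a 0.35 ± 0.10, while Birc5 (0.21) was not called. Top2a lost its call without bone marrow replicate 1 (0.0851) or 3 (0.0640) or fetal liver replicate 2 (0.0575), and with no intensity trend (0.0778). On bone marrow replicate 1 the median deviation from the mean of its tissue was -0.15 on the log2 scale for G2/M genes, -0.15 for G1/S targets, -0.11 for the E2F and DP genes, and its part in these counts was not tested beyond leaving it out. Of 5 tested apoptotic targets of E2F1, 3 were lower and none higher, beside 18.3% of all genes called lower. The 3 encode BH3-only death proteins: Bcl2l11 (log2 fold change -1.80 ± 0.14), Bbc3 (-1.93 ± 0.28) and Pmaip1 (-1.33 ± 0.23). Apaf1 (0.06) and Casp8 (-0.15) were not called.

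**Figure D5:**
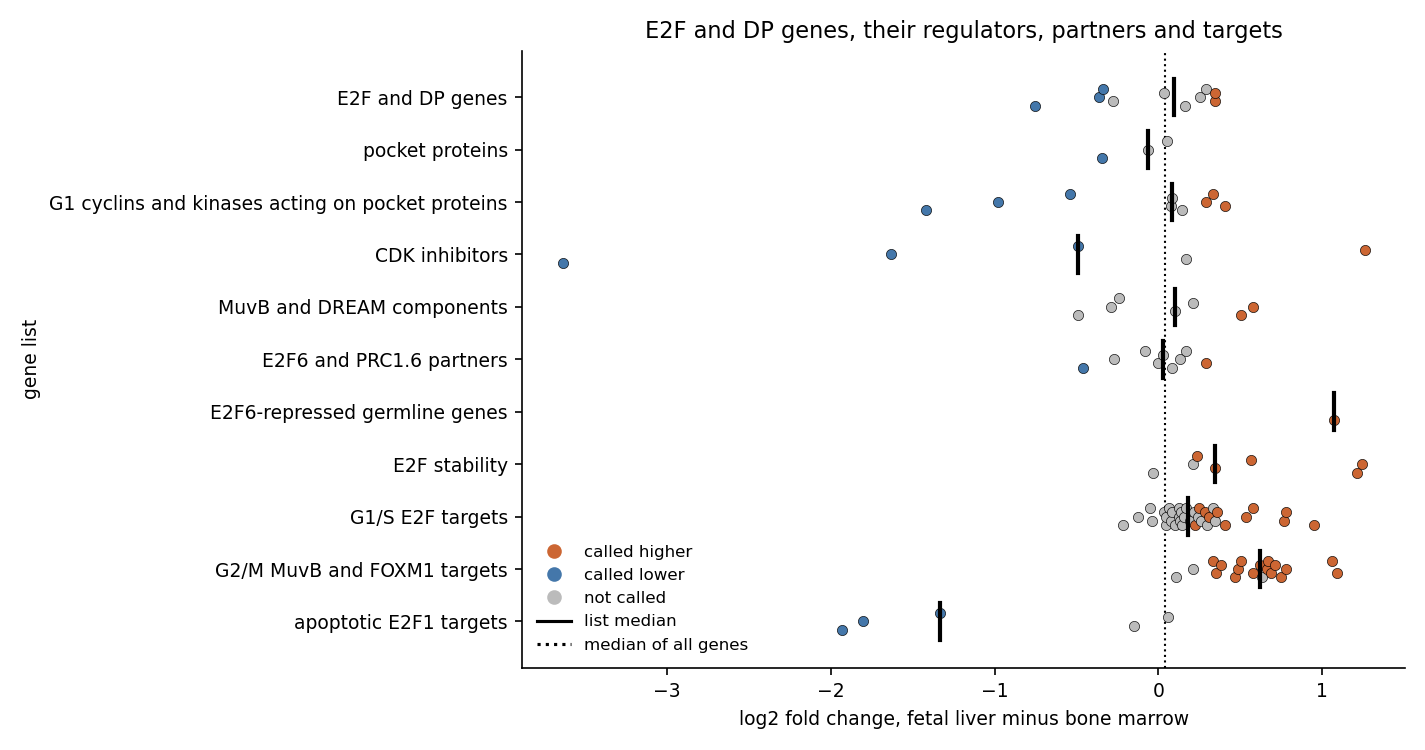
Log2 fold change (x axis) of each tested gene of the E2F and DP family and of 10 lists of regulators, partners and targets; points are genes, black bars list medians and the dotted line the median of all genes, 0.04. The G2/M list is centred at 0.62 and the G1/S list at 0.18, while 3 apoptotic targets and 3 CDK inhibitors lie at or below -0.49.

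For likeness, Pearson's r of log2 signal over the 6 arrays was computed for the member with the largest called rise and the one with the largest called fall, as a description. E2f7 was most like Myzap, Spc25 and Mff (r = 0.997, 0.995 and 0.994), and 542 genes had r above 0.9. E2f2 was most like Stard5, Card6 and Nudt7 (r = 0.998, 0.993 and 0.988), with 313 genes above 0.9.

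All sort markers had signal in both tissues. Itga2b, which encodes CD41, read 3841 to 4912 in bone marrow and 3330 to 5307 in fetal liver, and Slamf1, which encodes CD150, 1842 to 2303 and 1014 to 3024; neither was called. Kit was lower in fetal liver with no overlap, at 959 to 1542 against 1793 to 1909 (log2 fold change -0.62, adjusted p = 0.0141). Markers of other lineages also differed between the groups. The counts of called markers below, also of megakaryocyte markers, stand beside 17.8% of all genes called higher and 18.3% called lower. Granulocyte and monocyte markers summed to a signal of 54630 to 66670 per bone marrow array and 7275 to 9101 per fetal liver array, and all 11 tested were called lower. All 5 tested macrophage markers (2082 to 2478 against 296 to 388) and 4 of 6 lymphoid markers (2977 to 4300 against 1411 to 1549) were lower as well. So were 4 of 5 mast cell and basophil markers (10260 to 10740 against 6196 to 7124). C1qa, C1qc, Rag1 and Cd3e were below the filter. Genes that were not called carried much of 2 of these sums. Gata2 averaged 6754 in bone marrow and 6552 in fetal liver, in the mast cell and basophil sum. Cd79b averaged 1482 and 1268, most of the lymphoid sum in fetal liver. On all 3 fetal liver arrays Vcam1, Cd79a, Mcpt8 and Fcer1a lay below the level of unspiked control probe sets. The filter used the mean over both tissues, so these genes passed it only through their bone marrow signal. The same holds for Adgre1, Dntt, Ebf1 and Ms4a2, with fetal liver means of 14.0, 13.6, 20.3 and 13.8. For such genes the lower call follows from the filter and adds no support. Of 8 erythroid markers 3 were higher and 3 lower (5265 to 13710 against 9323 to 10380). The globin genes Hbb-y and Hba-x averaged 3853 and 1938 in fetal liver against 12.2 and 1.80 in bone marrow, and Epor rose by 0.59. Both globin genes passed the filter only through fetal liver. The lower ones were Slc4a1 (log2 fold change -3.56), Alas2 (-4.11) and Rhd (-2.85). Of 5 endothelial markers 3 were higher (2818 to 3266 against 3819 to 5060), of 4 hepatoblast markers 1 was higher and 2 lower (1824 to 2032 against 1440 to 2161), and of 9 megakaryocyte markers 2 were higher (22240 to 26980 against 19080 to 34300). Fetal liver replicate 1 was the low array for megakaryocyte markers, with Ppbp at 178 against 1157 and 1376 on the other fetal liver arrays and Vwf at 1427 against 3324 and 3028. The part of these cell types in the E2F and DP differences was not tested. In bulk samples fewer cells of a type and less RNA per cell cannot be told apart.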

How the data were processed

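RNA of 6 samples was hybridised to Affymetrix mouse arrays. The deposited values are linear intensity signals which the authors computed with MAS5, as the submitters' processing notes state without a version. Signals were log2-transformed with no offset, and probe sets with a mean log2 signal above the 40th percentile (a signal of 22.9) were kept, 27022 in all. For each of 11645 genes the probe set of highest mean was fitted with limma 3.58.1 (R 4.3.3), with tissue as the only term, 4 residual degrees of freedom, an intensity-trended prior and Benjamini-Hochberg adjustment over all genes; every probe set was also fitted. The fit was tested on simulated data. The control level (10.6) is the 95th percentile of 27 unspiked control probe sets. The number of arrays limits the precision.

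The members and lists, and the rules, were chosen with earlier results of these data known. Named genes were all members, the called genes of lists of up to 10, and of longer lists the 3 with the smallest adjusted p and the 3 brightest. Of 183 list entries 168 had a probe set with 1 gene symbol; the others were not analysed here. Sequences are from RefSeq (GRCm38.p6). Alternatives covered the filter, scaling, an offset, a floor, the mean of probe sets, the prior, array weights, a replicate block and leaving out each array.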

Additional observations from a re-analysis of the deposited data

How the results depend on the processing

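E2F and DP genes higher in fetal liver numbered 2, and 4 under median centring, 6 under median centring over all probe sets (chosen after seeing the data), 1 with no intensity trend, and 0 to 2 when 1 array was left out. Those lower numbered 3, and 0 under either median centring and 1 to 3 with 1 array left out. Probe sets of the family called higher numbered 2, and 0 with no filter, 4 under quantile normalization or median centring, 8 under centring over all probe sets, 1 with no intensity trend and 0 to 1 with 1 array left out. Those called lower numbered 5, and 1 under median centring, 0 under centring over all probe sets, 2 with no intensity trend, 8 with array weights and 1 to 6 with 1 array left out. Averaging the probe sets of a gene gives no count of single probe sets. G1/S targets called higher numbered 11, and 23 and 31 under the 2 centrings and 7 to 10 with 1 array left out; 1 was called lower with array weights, and 0 to 1 with 1 array left out. The count of higher G2/M genes, 16, lay between 14 and 19 under the 18 alternatives. Under centring over all probe sets E2f1 turned from below to above 0 (0.063) and E2f8 was at 0, with no direction. The sign also turned for Tfdp1 under quantile normalization (-0.048) and when 1 array was left out (-0.002 to 0.064). With no intensity trend E2f2 (adjusted p = 0.0795) and E2f6 (0.0545) lost their calls. For the 36 other named genes, 570 of 647 values kept direction and call, 68 lost the call, 9 gained it and 0 reversed. Apart from the centrings, whose construction shifts all genes of an array together, the causes were not tested.

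Replicate numbers are shared by the groups, and no pairing by them was visible: deviations of same-numbered arrays correlated at -0.08, 0.07 and -0.11. Differently numbered arrays correlated at -0.052 to 0.145. With 3 arrays per group these values cannot exclude pairing. With the replicate block 1 member was higher (E2f7 lost, adjusted p = 0.0666) and 2 lower (E2f2 lost, 0.0537), with 1 probe set called higher. Signals far below the control level, such as 1 E2f5 probe set, allow no comparison.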
